A study of Mus musculus with 16 samples.

Results

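The spleen's CD4-CD8- dendritic cells (DC) were compared with Gr1+ monocytes of the bone marrow by the levels of their microRNAs (miRNAs). The comparison rests on 4 of the 16 arrays of a study of 8 sorted mouse cell populations. They were chosen by sample title, 2 arrays of each population, and were paired by replicate number. The donors were female C57Bl/6 mice, 6 weeks old, whose cells were not cultured, and each array held RNA of a pool of animals, a separate biological replicate per the labels. CD4-CD8- DC came from pools of 8 spleens, were enriched with beads for the integrin CD11c, and were sorted as CD11c+ CD3- CD4- CD8-. Gr1+ monocytes came from the marrow of femur and tibia in pools of 5 mice, were enriched on Ficoll, and were sorted as CD11b+ CD115+ Gr1+. The B-cell and plasmacytoid marker B220 is named as absent for the CD4+ and CD8+ DC of the same spleens, but the label of CD4-CD8- DC does not list it. Tissue, pool size and enrichment differ between the populations in every replicate and cannot be told apart from the cell population itself. In RNA of a whole population, fewer cells carrying a miRNA and less of it per cell cannot be told apart either.

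A miRNA is a short RNA that guides a silencing complex to messenger RNAs, mainly by pairing through its seed, bases 2 to 8 from its 5′ end. Dendritic cells present antigen to T cells, and the CD4-CD8- cells are one of the conventional subsets of the spleen. Gr1+ monocytes are made in the marrow, leave it for inflamed tissue and can give rise to macrophages and to dendritic cells there. miR-223 is known from monocytes and granulocytes, miR-146a and miR-155 from responses to microbial products, and miR-150 from mature lymphocytes.

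The mature sequences below belong to the miRNAs with the largest differences and to families whose members share a seed. They are those of RefSeq for mouse build GRCm38.p6, written 5′ to 3′, with the seed in capitals.
miR-146a: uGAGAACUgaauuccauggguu
miR-34a: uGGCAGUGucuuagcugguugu
miR-155: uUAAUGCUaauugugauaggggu
miR-29a: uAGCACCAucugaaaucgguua
miR-29b: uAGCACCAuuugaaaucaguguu
miR-29c: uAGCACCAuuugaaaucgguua
miR-342-3p: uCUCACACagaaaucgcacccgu
miR-181a: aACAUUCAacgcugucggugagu
miR-181b: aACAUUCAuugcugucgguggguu
miR-223: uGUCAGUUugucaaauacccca
miR-148a: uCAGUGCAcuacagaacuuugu
miR-27a: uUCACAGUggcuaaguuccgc
miR-27b: uUCACAGUggcuaaguucugc
miR-17: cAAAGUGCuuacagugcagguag
miR-93: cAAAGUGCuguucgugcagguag

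The 3 miR-29 sequences have the seed AGCACCA, miR-27a and miR-27b have UCACAGU, and miR-17 and miR-93 have AAAGUGC. miR-181a and miR-181b have ACAUUCA. Of the 175 miRNAs tested, 150 could be matched to 1 mature sequence through their probes. miR-150, miR-151-5p and miR-709 could not.

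In GRCm38.p6, miR-146a lies at chr11:43374435-43374456 on the minus strand and miR-34a at chr4:150068473-150068494 on the plus strand, both outside annotated host genes in the table used. miR-155 lies at chr16:84714143-84714165 within the long non-coding RNA Mir155hg. miR-223 lies at chrX:96242884-96242905 within the non-coding RNA F630028O10Rik. miR-342-3p lies at chr12:108658680-108658702 within the protein-coding gene Evl, and miR-27b at chr13:63300760-63300780 within Aopep. miR-29b and miR-29c lie together at chr1:195037091-195037113 and chr1:195037600-195037621, and miR-29a lies at chr6:31062673-31062694 beside a further copy of miR-29b.

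On the 4 arrays 16.7 to 22 percent of spots passed the scanner's mark for well above background and 0 were saturated. The CD4-CD8- DC arrays detected 124 and 147 miRNAs and the monocyte arrays 123 and 142, of 604 carried by both array designs. Replicate 1 of every population lay on design 1 and replicate 2 on design 2. A level is given as the log2 of the signal over the array's 75th percentile, and levels of different miRNAs are not compared, since probes differ. Levels below a floor were raised to it, -5.32 on design 1 and -5.78 on design 2. With each miRNA centred within its design, the CD4-CD8- DC arrays correlated with each other at r = 0.807 across 175 miRNAs and the monocyte arrays at r = 0.824. Replicate 1 of CD4-CD8- DC correlated equally well, at 0.807, with replicate 2 of CD4+ DC. The arrays hold no messenger RNA, so the surface markers of the sorts could not be checked, and 2 arrays per population limit the precision.

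CD4-CD8- DC and Gr1+ monocytes differed in 51 of the 175 tested miRNAs, 29.1 percent, at an adjusted p under 0.05 (limma over all 16 arrays with the design as a block, Benjamini-Hochberg). Of these, 30 were higher in CD4-CD8- DC (17.1 percent) and 21 lower (12 percent). The rises were the larger changes. 5 miRNAs were over 8-fold higher in CD4-CD8- DC, namely miR-146a, miR-34a, miR-155, miR-150 and miR-151-5p, while the largest fall was that of miR-223, 3.62-fold. The split depended on the scaling: quantile normalization called 19 higher and 26 lower, and scaling on the miRNAs detected on these 4 arrays 21 higher and 27 lower. With normexp background correction, which moved the median difference of the miRNAs detected on all 4 arrays by -0.52, the counts were 9 higher and 86 lower. The median difference over all 175 tested miRNAs was then -1.01, against 0.0 in the main setting.

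**Figure D1:**
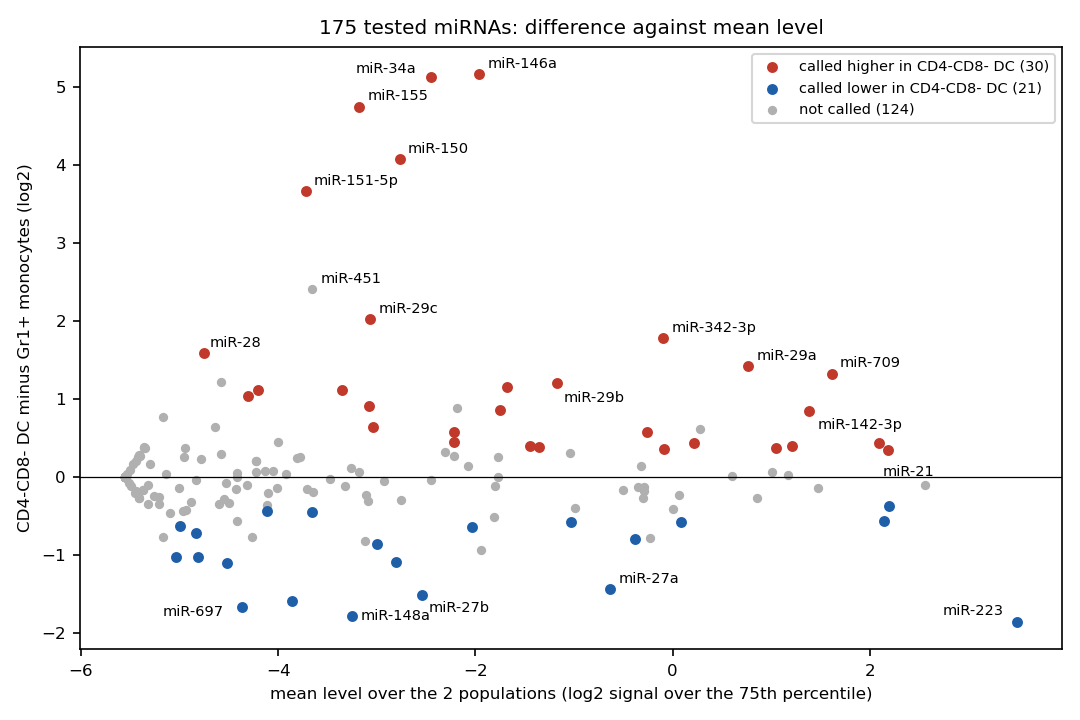
Difference between CD4-CD8- DC and Gr1+ monocytes (log2, vertical axis) against the mean level over both (log2 signal over the 75th percentile, horizontal axis) for the 175 tested miRNAs. The 30 called higher in CD4-CD8- DC reach 5.16, the 21 called lower reach -1.86, and the 124 not called are grey.

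The largest rises were those of miRNAs known from activated or stressed cells. miR-146a is induced by NF-kB and restrains the Toll-like receptor adaptors Traf6 and Irak1. Its level was 0.69 and 0.56 in CD4-CD8- DC, against -4.12 and -4.96 in Gr1+ monocytes, a difference of 5.16 ± 0.31 (SE) or 35.7-fold (adjusted p = 5.96e-06). Both DC arrays lay far above both monocyte arrays, and the raw signals were 886 and 814 in CD4-CD8- DC and 30.0 and 15.4 in monocytes. miR-34a, which p53 induces, had levels of 0.36 and -0.15 in CD4-CD8- DC and -4.90 and -5.13 in monocytes, a difference of 5.12 ± 0.28 or 34.8-fold (adjusted p = 5.96e-06). Here too the groups did not overlap, although miR-34a was above background on both monocyte arrays.

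miR-155, which is cut from Mir155hg and is known to be needed in mice for dendritic cells to activate T cells, had levels of -0.85 and -0.76 in CD4-CD8- DC. It was not above background on either monocyte array, so CD4-CD8- DC were at least 19.4-fold higher (adjusted p = 2.06e-05). For this bound the monocyte side of each array was the larger of the measured signal and the dimmest signal that counted as detected there. The adjusted p beside this and later bounds tests the difference of floored levels, not the bound. Where both arrays of a population lie at the floor, that side shows no spread of its own. miR-146b, which shares the seed of miR-146a, was at -4.0 and -4.25 in CD4-CD8- DC and at -4.27 and -4.38 in monocytes, a difference of 0.20 ± 0.17 that did not pass the test. The remaining 5 miRNAs of the activation list, miR-9, miR-132, miR-147, miR-125a-5p and miR-187, were above background on none of the 4 arrays. Of the 9 listed, 4 were thus tested and 3 called higher, against 17.1 percent of all tested miRNAs, and the list was chosen with such results known. With normexp the 3 differences shrank to 2.35 for miR-146a, 1.91 for miR-34a and 1.20 for miR-155, and that of miR-155 was no longer called.

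miRNAs known from lymphocytes and plasmacytoid DC were the next group. miR-150, which is abundant in mature B and T cells and targets Myb, had levels of -1.33 and -0.12 in CD4-CD8- DC, against -4.07 and -5.54 in monocytes. The difference was 4.08 ± 0.56 or 16.9-fold (adjusted p = 8.12e-04). All 4 arrays were above background, and the arrays of each population lay more than 1 log2 unit apart. Without replicate 1 of the monocytes the difference was 5.04, and without replicate 2 of the monocytes it was 3.11, the call remaining in both.

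miR-342-3p, encoded within Evl, had levels of 0.41 and 1.18 in CD4-CD8- DC and -0.94 and -1.03 in monocytes, a difference of 1.78 ± 0.29 (adjusted p = 0.00201). Its partner arm miR-342-5p was above background on both DC arrays and neither monocyte array, at levels too close to the floor for a bound on the fold. It was not called in the main setting, and was called with the brightest probe (1.09) and without the floor (1.49). miR-181a, which tunes T-cell receptor signalling, had levels of -1.16 and -1.05 in CD4-CD8- DC and -2.26 and -2.26 in monocytes, a difference of 1.16 ± 0.13 (adjusted p = 1.82e-04). The difference of miR-181c was 1.12 ± 0.19 (adjusted p = 0.00227). The other two members with the same seed went the other way without passing the test, miR-181b at -0.31 ± 0.15 and miR-181d at -0.28 ± 0.29.

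In all, 4 of the 9 lymphocyte-list miRNAs were higher in CD4-CD8- DC and none lower, with a median of 0.64, while 17.1 percent of all tested miRNAs were higher. The summed linear level of the list was 2.48 and 4.02 in CD4-CD8- DC, against 1.09 and 1.00 in Gr1+ monocytes. This sum weights each miRNA by the brightness of its probes, and miR-342-3p alone made up most of it in CD4-CD8- DC. On the CD4-CD8- DC arrays 8 of the 9 were detected and on the monocyte arrays 7, and miR-592 was above background on none. The part that cells of a lymphocyte or plasmacytoid type may have in these levels was not tested. miR-181b was called lower with quantile normalization (-0.53) and with scaling on the miRNAs detected on these arrays (-0.43). With normexp 1 of the 9 was called higher (miR-342-3p) and 3 were called lower, with a median of -0.88, and miR-181c turned to -0.73. The median over all 175 tested miRNAs was -1.01 in that setting.

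All 3 members of the miR-29 family were called higher in CD4-CD8- DC, against 17.1 percent of all tested miRNAs. This family is known to repress collagens and other matrix genes. miR-29a had levels of 1.47 and 1.47 in CD4-CD8- DC and 0.04 and 0.07 in Gr1+ monocytes, a difference of 1.42 ± 0.12 or 2.67-fold (adjusted p = 4.14e-05). The replicates of each population nearly coincided. miR-29c had levels of -2.13 and -1.98 in CD4-CD8- DC and -4.05 and -4.11 in monocytes, a difference of 2.02 ± 0.18 or 4.07-fold (adjusted p = 4.14e-05). miR-29b followed with levels of -0.29 and -0.85 in CD4-CD8- DC and -1.60 and -1.95 in monocytes, a difference of 1.21 ± 0.23 (adjusted p = 0.00426). No array of either population overlapped with the other for any of the 3, as was the case for 41.1 percent of all tested miRNAs. With normexp the differences of miR-29c (0.06) and miR-29b (0.57) were no longer called, while that of miR-29a was 1.34.

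miR-151-5p and miR-28 rose as well, and neither was above background in monocytes. miR-151-5p had levels of -1.55 and -2.23 in CD4-CD8- DC, at least 9.15-fold above the monocytes (adjusted p = 5.96e-06). miR-28, encoded within Lpp, had levels of -3.80 and -4.12 in CD4-CD8- DC, at least 2.17-fold above the monocytes (adjusted p = 1.82e-04). Neither was above background in the 3 progenitor populations of the study. With normexp both calls were lost, miR-151-5p at 0.45 and miR-28 at -0.70.

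Both arms of miR-142, which is made almost only in blood cells, were higher in CD4-CD8- DC. The 3′ arm miR-142-3p had levels of 2.40 and 1.21 in CD4-CD8- DC and 1.5 and 0.42 in monocytes, a difference of 0.85 ± 0.19 (adjusted p = 0.00906). The 5′ arm miR-142-5p had levels of -0.82 and -1.83 in CD4-CD8- DC and -1.80 and -2.56 in monocytes, a difference of 0.86 ± 0.17 (adjusted p = 0.00627). The populations overlapped across the designs for both arms and were separate within each design, where design 2 gave the lower values. Both calls were lost without replicate 1 of CD4-CD8- DC (0.68 and 0.69), with quantile normalization (0.50 and 0.60) and with scaling over all miRNAs, and that of miR-142-3p also without replicate 2 of the monocytes.

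miR-709 had levels of 2.49 and 2.05 in CD4-CD8- DC and 0.98 and 0.92 in monocytes, a difference of 1.32 ± 0.19 (adjusted p = 8.85e-04). miR-361, encoded within the gene Chm and given here although it lies outside the rule for named miRNAs, differed by 0.91 ± 0.14 (adjusted p = 0.00143), and by -0.40 with normexp. miR-125b-5p and miR-99a are known from blood stem cells. Their levels in CD4-CD8- DC were -2.77 and -2.83 for miR-125b-5p and -3.66 and -3.91 for miR-99a, against -3.93 and -3.90 and against -4.93 and -4.72 in monocytes. The differences were 1.12 ± 0.28 (adjusted p = 0.0154) and 1.04 ± 0.21 (adjusted p = 0.00602). The call of miR-125b-5p was lost without replicate 1 of CD4-CD8- DC, without replicate 2 of the monocytes and with quantile normalization (0.82), and both miRNAs turned negative with normexp, to -0.44 and -0.78.

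**Figure D2:**
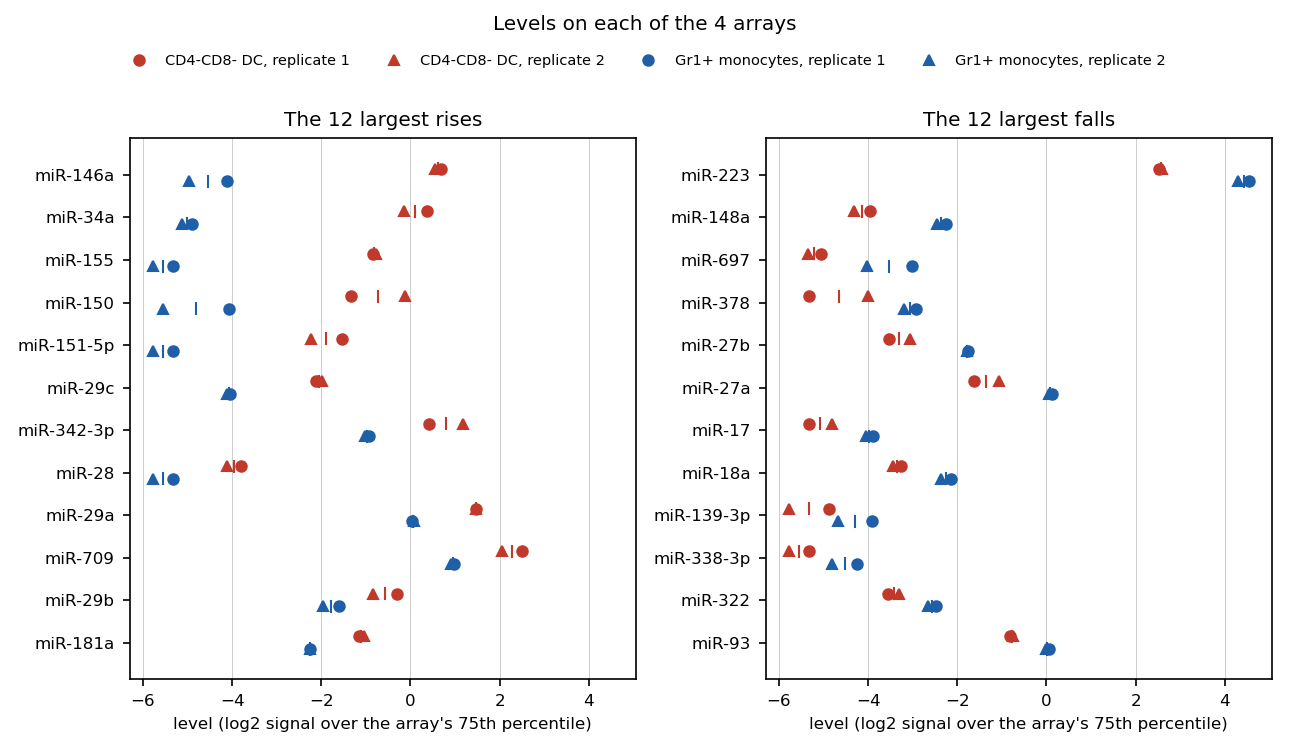
Levels of the 12 miRNAs with the largest rises (left) and the 12 with the largest falls (right) on each array (log2 signal over the 75th percentile). CD4-CD8- DC are red and drawn above Gr1+ monocytes in blue; circles are replicate 1, triangles replicate 2, and bars the mean of both. No pair of populations overlaps in either panel, as is the case for 41.1 percent of all tested miRNAs. For miR-155, miR-151-5p and miR-28 both monocyte points lie at the floor.

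Some members of other families rose by smaller amounts. The let-7 family, known from differentiated cells, had 6 of 9 tested members called higher in CD4-CD8- DC and none lower, against 17.1 percent higher over all miRNAs, with a median of 0.37. let-7a had levels of 2.36 and 2.27 in CD4-CD8- DC and 1.94 and 1.82 in monocytes, a difference of 0.44 ± 0.10 (adjusted p = 0.0119). let-7c (0.43), let-7d (0.39), let-7g (0.37), let-7b (0.36) and let-7f (0.34) were called as well, while let-7i at -0.14 and miR-98 at -0.03 did not pass. let-7e, at -4.86 and -4.71 in CD4-CD8- DC, was not above background in monocytes and was at least 1.23-fold higher in CD4-CD8- DC. It was not called with the floor and was called without it. With scaling over all miRNAs, and with scaling on the miRNAs detected on these arrays, 0 of the 9 were called higher, and quantile normalization called 2. Each of the last 2 settings called 1 member lower, and without replicate 2 of the monocytes none of the 6 was called.

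The miR-30 family had 3 of 5 members called higher, miR-30e at 0.57 ± 0.12, miR-30b at 0.39 ± 0.12 and miR-30c at 0.38 ± 0.11, against 17.1 percent over all miRNAs. None of the 5 was called with scaling over all miRNAs or quantile normalization, where miR-30b turned to -0.21 and miR-30c to -0.22, and 1, miR-30e, with scaling on the miRNAs detected on these arrays. The call of miR-30b was lost without any 1 of the 4 arrays, that of miR-30c without each but replicate 2 of CD4-CD8- DC, and that of miR-30e without replicate 1 of CD4-CD8- DC. Of the miR-130 and miR-301 family, miR-130b was called at 0.44 ± 0.14 (adjusted p = 0.0459) and was lost under each of the 3 other scalings. Its relative miR-301a, at 0.25 ± 0.24, did not pass. Of the miRNAs outside the rule for naming, miR-107 (0.57 ± 0.13) and miR-423-5p (0.64 ± 0.13) were called as well. With normexp miR-423-5p (-0.54), miR-30e (-0.25) and miR-130b (-0.29) changed sign.

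Of the falls, that of miR-223 was the largest. miR-223 marks cells of the granulocyte and monocyte lines and restrains granulocyte formation. Its level was 2.53 and 2.60 in CD4-CD8- DC, against 4.54 and 4.30 in Gr1+ monocytes, a difference of -1.86 ± 0.20 (adjusted p = 1.56e-04). CD4-CD8- DC still gave raw signals of 3186 and 3360, against 12116 and 9485 in monocytes. With quantile normalization, which sets the brightest signals of each array to common values, the difference was -0.26 and was not called.

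In the main setting the myeloid list as a whole did not move one way. Of its 10 tested members, 3 were lower (miR-223, miR-27a and miR-322), against 12 percent of all miRNAs. The arms of miR-142 made 2 higher, against 17.1 percent, and 5 did not pass, with a median of -0.21. Scaling over all miRNAs called 0 members higher and 3 lower, and quantile normalization 0 higher and 4 lower. Scaling on the miRNAs detected on these arrays called 2 higher and 4 lower. miR-21, known from many activated and dividing cells, had levels of 2.27 and 2.74 in CD4-CD8- DC and 2.88 and 2.33 in monocytes, a difference of -0.10 ± 0.38, and the groups overlapped. miR-22 had levels of -1.11 and -0.66 in CD4-CD8- DC and -1.0 and -1.39 in monocytes, a difference of 0.30 ± 0.21 that did not pass.

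Of the 5 miRNAs of the miR-23, miR-27 and miR-24 clusters, 3 were called lower in CD4-CD8- DC, against 12 percent of all miRNAs, and both miR-27 members fell most. miR-27a had levels of -1.63 and -1.07 in CD4-CD8- DC and 0.12 and 0.06 in monocytes, a difference of -1.44 ± 0.26 or 2.71-fold (adjusted p = 0.00324). miR-27b, with the same seed but on another chromosome, had levels of -3.53 and -3.07 in CD4-CD8- DC and -1.77 and -1.79 in monocytes, a difference of -1.52 ± 0.17 or 2.86-fold (adjusted p = 1.82e-04). In both cases every DC array lay below every monocyte array. The 2 populations did not overlap for 41.1 percent of all tested miRNAs. miR-23b fell by 0.58 on the log2 scale (SE 0.15, adjusted p = 0.0173), a call lost without replicate 1 of either population. miR-24, at -0.41 ± 0.16, and miR-23a, at -0.27 ± 0.17, did not pass, and their levels overlapped between the populations. With quantile normalization all 5 were called lower.

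The miR-17 clusters, known to promote growth and cell division, had 4 of 10 tested members called lower and none higher, with a median of -0.35, while 12 percent of all miRNAs were called lower. miR-17 had levels of -5.32 and -4.82 in CD4-CD8- DC, the first at the floor, and -3.88 and -4.06 in monocytes, a difference of -1.10 ± 0.17 (adjusted p = 0.00156). miR-18a had levels of -3.27 and -3.43 in CD4-CD8- DC and -2.15 and -2.37 in monocytes, a difference of -1.09 ± 0.19 (adjusted p = 0.00259). miR-93, from the related cluster within Mcm7, had levels of -0.81 and -0.75 in CD4-CD8- DC and 0.05 and -0.01 in monocytes, a difference of -0.80 ± 0.16 (adjusted p = 0.00616). miR-20a was called at -0.58 ± 0.12. Other members of the same clusters moved less: miR-92a differed by 0.03 ± 0.11, miR-19b by -0.19 and miR-25 by -0.24, none of them called. miR-92a and miR-19b are encoded on chromosome X as well as beside miR-17, so their signals cannot be assigned to a single transcript. For miR-20a the call was lost with scaling over all miRNAs and without replicate 1 of the monocytes.

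Of the family with the seed of miR-15 and miR-16, which is known to hold back cell division, 3 of 5 tested members were lower, against 12 percent of all miRNAs. miR-322 had levels of -3.55 and -3.30 in CD4-CD8- DC and -2.48 and -2.66 in monocytes, a difference of -0.86 ± 0.14 (adjusted p = 0.00202). The difference of miR-16 was -0.56 ± 0.11 (adjusted p = 0.00426) and that of miR-15b -0.38 ± 0.11 (adjusted p = 0.0326). With scaling over all miRNAs miR-322 alone was called, and the call of miR-15b was also lost on leaving out any array but replicate 2 of the monocytes.

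The second largest fall was that of miR-148a, which in mouse DC is known to hold back antigen presentation. It had levels of -3.97 and -4.30 in CD4-CD8- DC and -2.26 and -2.46 in monocytes, a difference of -1.78 ± 0.14 or 3.43-fold (adjusted p = 2.18e-05). Its relative miR-148b, with the same seed, was at -4.40 and -4.75 in CD4-CD8- DC and -4.42 and -4.57 in monocytes, a difference of -0.08 ± 0.13. miR-338-3p, encoded within Aatk, was above background on both monocyte arrays, at -4.25 and -4.80, and on neither DC array, so it was at least 1.51-fold lower in CD4-CD8- DC (adjusted p = 8.71e-06). That p belongs to the difference of floored levels, -1.03.

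Other falls included those of miRNAs near the floor in CD4-CD8- DC. miR-378 had levels of -5.32 and -3.99 in CD4-CD8- DC and -2.93 and -3.20 in monocytes, a difference of -1.59 ± 0.31 (adjusted p = 0.00536). It was -0.99 without replicate 1 of CD4-CD8- DC and -2.19 without replicate 2, the call remaining in both. miR-697 (-1.67 ± 0.39, adjusted p = 0.0118) was lost without replicate 1 of either population, and miR-139-3p (-1.03 ± 0.32, adjusted p = 0.0411) on leaving out any of the 4 arrays, with values from -1.20 to -0.86. miR-697 and miR-139-3p were each above background on only 1 of the DC arrays. miR-221, a repressor of Kit, was called at -0.64 ± 0.16, a call lost without replicate 1 of either population, while miR-222 at -0.19 ± 0.14 did not pass. miR-210, known from hypoxia, miR-669f, miR-374 and miR-340-3p, outside the rule for named miRNAs, were called at -0.62, -0.71, -0.45 and -0.43.

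Markers of other cell types were examined as lists. Of 12 progenitor miRNAs, 4 were detected on each DC array (miR-99a, miR-125b-5p, miR-10a and let-7e) and 3 on each monocyte array (the same without let-7e), while miR-126-3p, miR-130a and miR-196b were above background on none of the 4. Of the 7 tested, 2 were called, miR-99a and miR-125b-5p, a share near the 29.1 percent of all miRNAs. Of the 20 miRNAs of muscle, stroma, endothelium, epithelium and liver, 2 were detected on both DC arrays, miR-200b at -4.92 and -5.66 and miR-200c at -5.26 and -5.27, and none in monocytes. None of the 3 tested was called. Of the red-cell miRNAs, miR-144 and miR-486 were above background on none of the 4 arrays. miR-451 was at -2.25 and -2.65 in CD4-CD8- DC and at -5.15 and -4.57 in monocytes, 1 of which detected it. Its difference of 2.41 ± 1.08 did not pass the test (adjusted p = 0.153), and the part of red cells or their RNA in it was not tested.

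**Figure D3:**
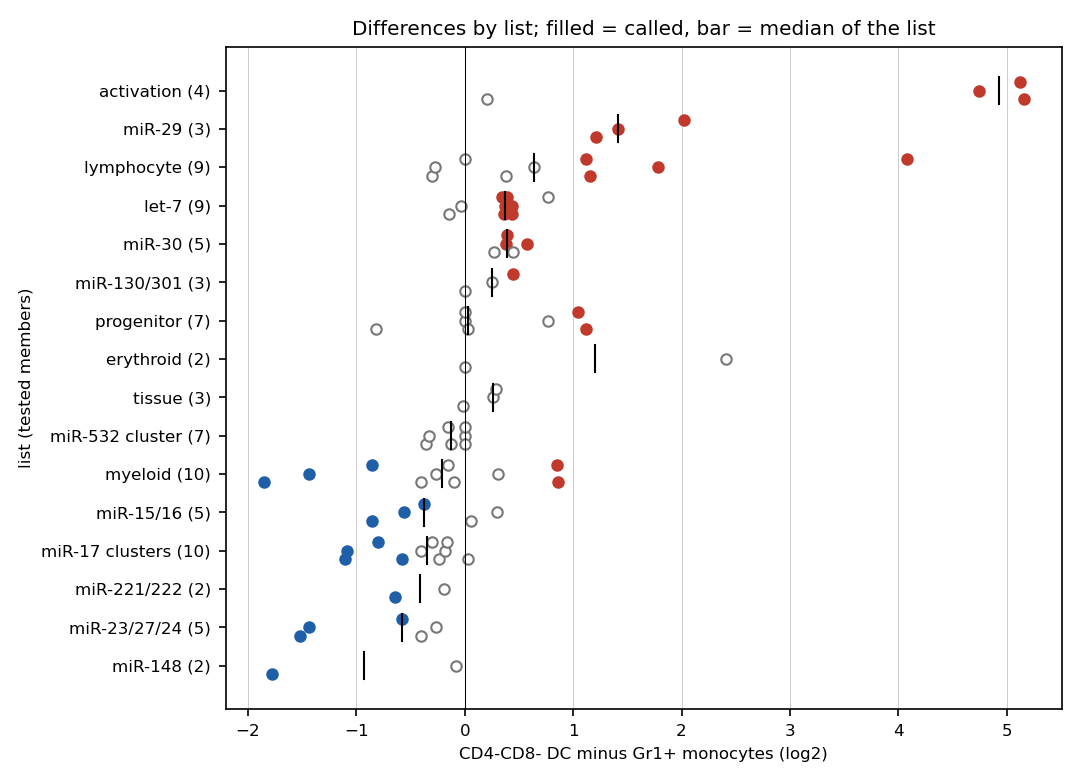
Difference between CD4-CD8- DC and Gr1+ monocytes (log2, horizontal axis) for the tested members of each list with at least 2, with the number tested in brackets. Filled points passed the test, red higher and blue lower in CD4-CD8- DC, open points did not, and black bars are list medians; lists hold filled points on 1 side of 0 only, except the myeloid list.

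miRNAs that share a transcript did not always differ alike. In the cluster on chromosome 14 the differences ran from -1.10 for miR-17 to 0.06 for its passenger strand miR-17*. That of miR-92a, which is also encoded on chromosome X, was 0.03. In the cluster on chromosome 8, miR-27a differed by -1.44 and its neighbour miR-23a by -0.27. miR-181a and miR-181b lie side by side on chromosomes 1 and 2, and differed by 1.16 and -0.31. By contrast, miR-29b and miR-29c on chromosome 1 both rose, as did let-7a, let-7d and let-7f on chromosome 13. miR-29b is also encoded on chromosome 6, and let-7f on chromosome X beside miR-98, which differed by -0.03. The signals of miR-29b and let-7f thus cannot be assigned to a single transcript. These let-7 calls were lost with scaling over all miRNAs and with scaling on the miRNAs detected on these arrays. None of the 7 tested miRNAs of the miR-532 cluster on chromosome X was called, against 29.1 percent of all miRNAs, with a median of -0.12. Quantile normalization called 1 of them lower. Normexp called 6 lower, in a setting where the median over all 175 tested miRNAs was -1.01. Of the 30 listed from the imprinted Dlk1-Dio3 region, only miR-494 was tested, at -0.79 ± 0.93. The passenger strand miR-17* was above background on all 4 arrays and differed by 0.06 ± 0.14, against -1.10 for miR-17.

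The mature sequences of the called miRNAs were described by their share of G and C. The median was 42.2 percent among the 26 matched miRNAs called higher, 45.5 percent among the 17 matched called lower and 50 percent among the 107 matched that were not called. Of the 24 miRNAs with at least 60 percent, 0 were called higher and 2 lower, with a median difference of 0.00. Of all tested miRNAs, 17.1 percent were called higher and 12 percent lower. Of the 175 tested miRNAs, 21 lay at the floor on all 4 arrays. Their difference is 0 by the floor, and they could not be called. The part of detection in the contrasts of G and C content was not tested.

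Each array design gives its own difference between the populations. All 51 called miRNAs had the same sign on both designs, and for 48 of them no DC array overlapped with a monocyte array, against 72 (41.1 percent) of all 175. Both counts follow in part from the calls, which were made on these same differences, so neither is a separate check. Across the 175 miRNAs, which share arrays and depth, the differences on the designs correlated at r = 0.875. The widest gap among the calls was that of miR-150, at 2.74 on design 1 and 5.42 on design 2. miR-10a, not called, was lower in CD4-CD8- DC on design 1 (-1.69) and level on design 2 (0.05). Of the 51 calls, 26 (15 higher, 11 lower) were made under each of the 3 other scalings as well, and 24 (15 higher, 9 lower) of these were also called without each of the 4 arrays in turn.

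**Figure D4:**
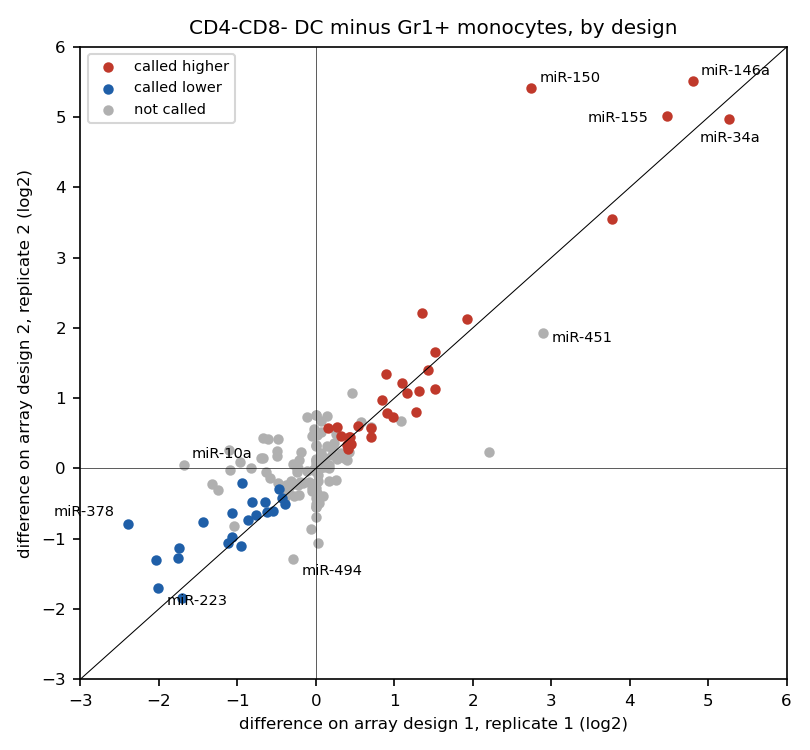
Difference between CD4-CD8- DC and Gr1+ monocytes on array design 1 (replicate 1, horizontal axis) and on design 2 (replicate 2, vertical axis), both log2, for the 175 tested miRNAs. The diagonal marks equal differences; red and blue are called higher and lower in CD4-CD8- DC, and miR-150 lies farthest from the diagonal among them.

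To see where CD4-CD8- DC stand apart within the spleen, they were also compared with the mean of the CD4+ and CD8+ DC of the same organ and pool size. CD4+ DC were sorted as CD11c+ CD3- CD4+ CD8- B220-, and CD8+ DC as CD11c+ CD3- CD4- CD8+ CD86+ B220-. This comparison uses the same CD4-CD8- DC arrays as the one with monocytes. It called 20 of 175 miRNAs (11.4 percent), 11 higher (6.29 percent) and 9 lower (5.14 percent) in CD4-CD8- DC. Scaling over all miRNAs moved the differences by 0.34 and gave 14 higher and 2 lower, while scaling on the miRNAs detected on the arrays compared gave 8 higher and 12 lower. With normexp 1 call was left, that of miR-1224, and miR-23a (0.81), miR-24 (0.65), miR-181b (0.30) and miR-138 were among those lost.

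miR-23a had levels of 0.40 and 1.03 in CD4-CD8- DC, against -0.13 and -0.04 in CD4+ DC and -0.33 and -0.15 in CD8+ DC. The difference was 0.88 ± 0.14 (adjusted p = 0.00667). miR-24, from the same cluster, differed by 0.77 ± 0.14 and miR-23b by 0.63 ± 0.13. For these 3 miRNAs both CD4-CD8- DC arrays lay above all 4 arrays of the other spleen DC. Their means in CD4-CD8- DC, 0.72, -0.20 and -1.32, lay below those in monocytes, 0.98, 0.20 and -0.75. The call of miR-24 was lost without replicate 2 of CD4-CD8- DC (0.52).

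miR-181b had levels of -3.35 and -3.14 in CD4-CD8- DC, -4.03 and -3.75 in CD4+ DC and -4.26 and -4.45 in CD8+ DC, a difference of 0.87 ± 0.13. miR-181c differed by 0.87 ± 0.16 and miR-181a by 0.79 ± 0.11. Of the 4 DC populations, plasmacytoid DC (PDC) had the highest levels of all 3, with means of -1.15 for miR-181b, -1.98 for miR-181c and 0.72 for miR-181a, against -3.25, -3.64 and -1.10 in CD4-CD8- DC. miR-592 was above background on both PDC arrays (-3.05 and -2.83) and on no array of the other 7 populations, CD4-CD8- DC included. A part of PDC in the higher miR-181 levels was not tested.

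The 9 miRNAs called lower in CD4-CD8- DC differed from CD8+ DC by -3.34 to -0.69 and from CD4+ DC by -1.0 to 0.16, for each of the 9 more from CD8+ DC. miR-138 was above background in neither CD4-CD8- DC nor monocytes, and had levels of -4.61 and -4.48 in CD4+ DC and -2.02 and -2.41 in CD8+ DC (adjusted p = 1.18e-05 against the mean of both). CD4-CD8- DC were thus at least 7.49-fold lower than CD8+ DC. miR-1224 had levels of -0.62 and -0.26 in CD4-CD8- DC, 0.15 and 0.16 in CD4+ DC and 1.23 and 1.64 in CD8+ DC, a difference of -1.24 ± 0.12. miR-370 and miR-101a were not above background in CD4-CD8- DC and were at least 2.54-fold and 2.02-fold lower there than in CD8+ DC. miR-697 differed by -1.37 ± 0.34. With scaling over all miRNAs the calls of miR-697 (-1.03), miR-370 and miR-101a were lost, and that of miR-697 also on leaving out any of 5 of the 6 arrays. Without replicate 2 of CD4-CD8- DC, 8 miRNAs were called in this comparison, and miR-181c (0.73), miR-370 and miR-101a were not among them.

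Set in all 8 populations, the miRNAs that separate CD4-CD8- DC from monocytes fall into several patterns. The mean level of miR-146a was 0.62 in CD4-CD8- DC, 1.15 in CD4+ DC, 0.35 in CD8+ DC and -1.07 in PDC, against -4.54 in monocytes and -4.84, -4.60 and -4.07 in common dendritic cell progenitors (CDP), macrophage and dendritic cell progenitors (MDP) and MP cells, a marrow population the labels do not spell out. miR-34a was as high in CD4+ DC (0.11) as in CD4-CD8- DC (0.11), lower in CD8+ DC (-1.28), and in PDC (-4.63) near the monocytes (-5.01). miR-155 had its highest mean in CD4-CD8- DC (-0.81), ahead of CD8+ DC (-1.51), MP (-1.85) and CD4+ DC (-2.17). Replicate 2 of CD8+ DC, at -0.86, reached the level of the CD4-CD8- DC arrays, so the order of these is not separated by the spread. miR-223 had its highest mean in monocytes (4.42), followed by CD8+ DC (3.29) and MDP (3.27), with CD4-CD8- DC at 2.57 and PDC lowest at 0.30. For miR-27a the monocytes (0.09) stood above all the others, and CD4-CD8- DC (-1.35) lay between the progenitors and the other spleen DC. miR-338-3p was above background on both arrays of monocytes and of CD4+ DC, on 1 of CD8+ DC and on none of CD4-CD8- DC.

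**Figure D5:**
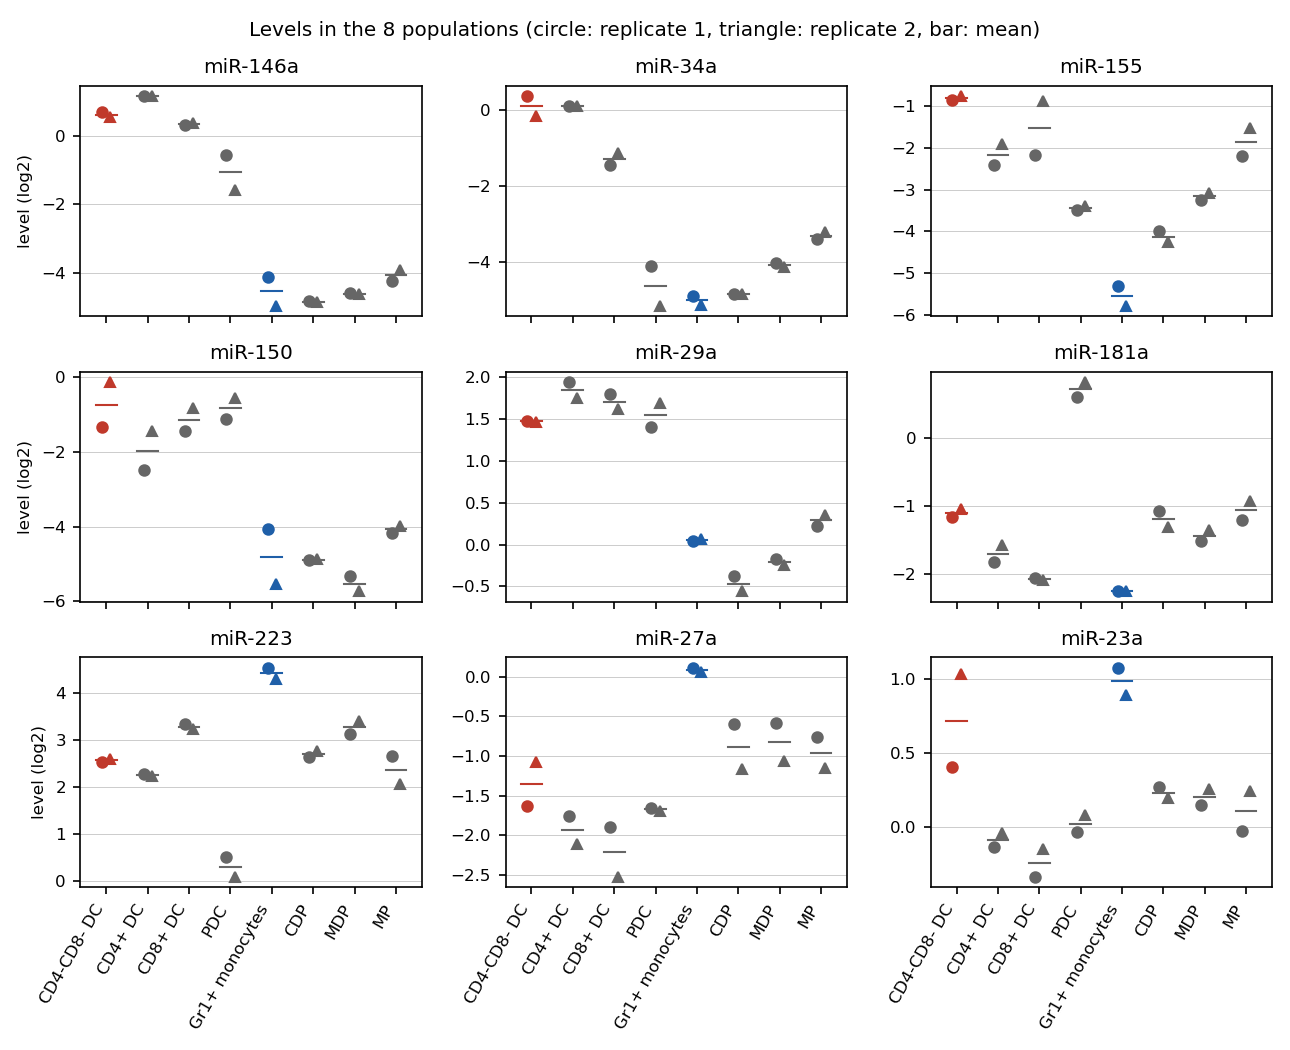
Levels of 9 miRNAs (log2 signal over the 75th percentile, vertical axes on different scales) in the 8 populations, with CD4-CD8- DC in red at the left and Gr1+ monocytes in blue. Circles are replicate 1, triangles replicate 2, bars means of both; miR-146a, miR-34a, miR-155 and miR-150 are near their lowest in monocytes, and miR-223 and miR-27a are highest there.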

How the data were processed

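RNA of 16 pools of sorted mouse cells was hybridised to Agilent 1-colour miRNA arrays of 2 designs, 8 arrays each on 1 slide. The processed signal, an intensity already background-subtracted, was used as deposited. The file headers name Agilent Feature Extraction 10.7.3.1, while the submitters' processing notes give version 9.1. The authors' deposited value tables hold the same linear signals, neither centred nor scaled between arrays, equal within 0.6 percent on every spot (column medians from -1.06 to 1.6), and gave 51 calls too.

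For each of the 604 mouse miRNAs on both designs, the signal was the mean over its probes of the mean over their spots without outlier flags. A miRNA counted as detected, or above background, where 0.5 or more of the spots of any of its probes were marked well above background. Signals were divided by each array's 75th percentile over the 88 miRNAs detected on all 16 arrays, taken to log2 and raised to a floor set for each design, the median over its arrays of the 5th percentile of detected miRNAs. Testing took the 175 miRNAs that both replicates of some population detected and used limma 3.58.1 in R 4.3.3, over all 16 arrays so that the populations share 1 estimate of spread, with replicate number as a block and Benjamini-Hochberg adjustment over the 175. Differences are given with their SE. The replicate number marks the array design and slide, and same-numbered arrays deviated together in 28 of 28 pairs (r from 0.293 to 0.916, median 0.571). With 2 arrays per population, the p-values rest on the spread left between replicates after the shift shared by each design is removed. Pools, slides and designs cannot be told apart in this spread, which is taken over all 8 populations rather than the 2 compared alone.

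The text names the 12 largest called rises and falls, up to 4 members of each list by p, a fixed set of blood-cell miRNAs, and the 5 largest called differences in each direction from the other spleen DC. Others are said to lie outside this rule or belong to the lists described. Members and lists were chosen with earlier results of these data known. On simulated arrays of the comparison with monocytes (20 runs, 60 of 175 miRNAs changed), 57.5, 79.5 and 97.0 percent of changes of 0.6, 1 and 2 log2 units were called. Among the calls of these runs, 4.20 percent were false. Both shares depend on how the runs were built, and neither gives the error rate of the calls on the real arrays. Alternatives were 3 other scalings, other filters, probe choice, the floor, normexp on the mean and background signals, no block, only the arrays compared, and each array left out.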

Additional observations from a re-analysis of the deposited data

Results flagged for a closer look

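The 92 miRNAs carried by array design 2 alone entered no test, since they were read on 1 array per population. Of these, 28 were detected on both the CD4-CD8- DC and the Gr1+ monocyte array. A difference above 1 log2 unit in favour of CD4-CD8- DC was found for 1 of them. miR-1839-3p had a level of -2.96 in CD4-CD8- DC and -4.41 in monocytes, a difference of 1.45 with no replicate. In the other direction, miR-3472 had a level of -5.10 in CD4-CD8- DC and -4.06 in monocytes, a difference of -1.04.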

How the results depend on the processing

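All 51 miRNAs called against monocytes kept their direction under the other scalings except miR-30c (-0.22) and miR-30b (-0.21) with quantile normalization. With normexp 41 of the 51 kept it, and miR-361 (-0.40), miR-423-5p (-0.54), miR-28 (-0.70), miR-181c (-0.73), miR-99a (-0.78), miR-125b-5p (-0.44), miR-30e (-0.25), miR-30c (-0.076), miR-30b (-0.079) and miR-130b (-0.29) changed sign, while miR-126-3p, above background on none of the 4 arrays, gave -1.20. The median over all 175 tested miRNAs was -1.01 with normexp. Against monocytes, the 51 calls (30 higher, 21 lower) became 28 (16, 12) with scaling over all miRNAs, 95 (9, 86) with normexp and 29 (16, 13) without the replicate block, all 29 among the 51. With quantile normalization 19 were higher and 26 lower. Leaving out 1 array gave 32 to 51 calls, of which 18 to 30 were higher and 13 to 22 lower. With only the 4 arrays compared, 0 were called by limma, against 52 at an unadjusted p under 0.05. Against the other spleen DC, the 20 calls (11 higher, 9 lower) became 1 (0, 1) with normexp, 10 (6, 4) without the block, that is, without pairing by design, and 0 with only the arrays compared (34 unadjusted). Without the filter and with the brightest probe 7 were higher. Scaling over all miRNAs left 2 lower, quantile normalization 3, and miRNAs detected on all 16 arrays 4. Leaving out 1 array gave 8 to 24 calls, 4 to 12 higher and 4 to 13 lower, with the 8 found without replicate 2 of CD4-CD8- DC. Without the filter, miRNAs at the floor on all 16 arrays have no spread and were dropped, leaving 209. The causes of these shifts were not tested. Signals near background carry only a bound, and 2 arrays per population on separate designs limit every difference.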
